A study of Mus musculus with 14 samples.

Results

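The Xlr3, Xlr4 and Xlr5 subfamilies, each made of near-identical copies, form a family of 9 genes on the mouse X chromosome: Xlr3a, Xlr3b, Xlr3c, Xlr4a, Xlr4b, Xlr4c, Xlr5a, Xlr5b and Xlr5c. They were chosen by symbol, as the rows of the gene count tables whose Ensembl identifiers map to these names, and all 9 were found among the 37991 genes of each table. RNA sequencing of polyadenylated RNA had been done on J1 mouse embryonic stem cells (mESC, strain 129S4/SvJae), a male line, in 7 groups of 2 libraries. In the first experiment, wild-type and Dnmt-TKO cells each received either the vehicle DMSO or PRT4165, an inhibitor of Polycomb repressive complex 1 (PRC1). In the second, which names no treatment, wild-type, Dnmt-TKO and Tet1-KO Dnmt-TKO cells were compared, so that the Tet1-KO cells and their TKO controls both carry the Dnmt-TKO genotype. Dnmt-TKO, shortened to TKO below, is the usual name for cells lacking the DNA methyltransferases Dnmt1, Dnmt3a and Dnmt3b. The labels do not say how many clones each genotype stands for, nor whether the paired libraries came from separate cultures, so p-values here reflect spread among these libraries only, which may be technical.

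Xlr stands for X-linked lymphocyte-regulated. The family is related to Sycp3, a component of the axis of meiotic chromosomes, through a shared region, and the copies are known for expression in testis and thymus. In mouse brain Xlr3b, Xlr4b and Xlr4c are imprinted, with the copy inherited from the mother the more active. Silencing of germline genes in embryonic stem cells is known to involve cytosine methylation, which Dnmt1 maintains through replication and Dnmt3a and Dnmt3b lay down, and PRC1, which attaches ubiquitin to a core histone. Tet1 oxidises methylated cytosine and also binds chromatin regulators.

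How alike the copies are sets how well their counts can be told apart. Over the coding sequence without its stop codon, which is 678 bases long in each Xlr3 copy, 645 in each Xlr4 copy and 708 in each Xlr5 copy, 9 of 9 pairs within a subfamily were 98.2 to 99.5% identical in the GENCODE M21 models. Xlr3b and Xlr3c differed at 4 bases, Xlr4b and Xlr4c at 3, and Xlr5a and Xlr5b at 4. Between subfamilies, the 27 pairs were 49.8 to 58% identical. The 60-base coding windows printed here are shown because they hold differing positions, in capitals, and so show how little sequence separates a read of one copy from a read of another. For Xlr3 they span coding bases 189 to 248.

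Xlr3a: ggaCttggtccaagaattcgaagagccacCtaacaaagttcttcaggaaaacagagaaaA
Xlr3b: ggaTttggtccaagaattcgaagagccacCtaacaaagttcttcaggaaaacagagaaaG
Xlr3c: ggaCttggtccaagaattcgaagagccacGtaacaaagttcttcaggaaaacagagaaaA

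In this Xlr3 window only 3 positions differ, and each of them sets 1 copy apart from the others. The Xlr4 window spans coding bases 508 to 567 and also holds 3 differing positions.

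Xlr4a: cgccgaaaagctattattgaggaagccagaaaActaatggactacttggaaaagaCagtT
Xlr4b: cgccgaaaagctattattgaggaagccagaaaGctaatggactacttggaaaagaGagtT
Xlr4c: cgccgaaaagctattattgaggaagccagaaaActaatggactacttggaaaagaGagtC

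For Xlr5 the first 60 coding bases hold 2 differing positions. Xlr5a and Xlr5b are the same throughout this stretch, and Xlr5c carries both changes.

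Xlr5a: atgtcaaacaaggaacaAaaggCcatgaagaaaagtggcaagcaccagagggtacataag
Xlr5b: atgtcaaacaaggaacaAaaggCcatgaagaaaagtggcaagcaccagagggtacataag
Xlr5c: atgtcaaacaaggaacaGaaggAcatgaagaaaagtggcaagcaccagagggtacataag

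Across whole annotated transcripts, the share of 50-base stretches found in no other gene ran from 9.27% for Xlr5b to 55.2% for Xlr3a. With 100-base stretches it ran from 18.7% to 75.6%, for the same copies. Xlr5a (15.8%) and Xlr5c (15.6%) were close to Xlr5b at 50 bases, and their annotated exons overlap by 101 bases. How reads that match several copies were treated is not given in the sources used here, so the split of reads between copies is uncertain, most of all for Xlr5, and sums over a subfamily are given beside single copies.

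**Figure D1:**
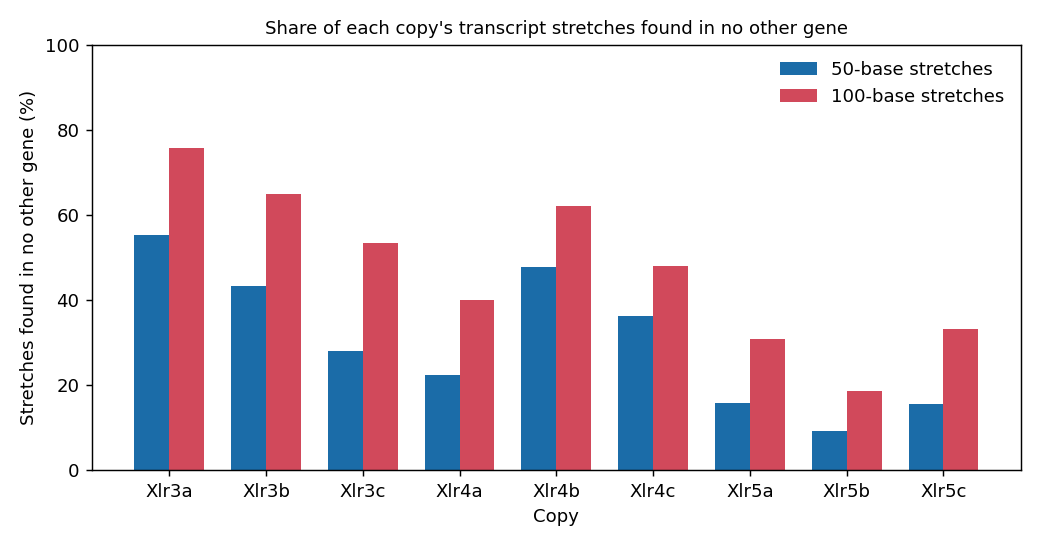
Share of each copy's annotated transcript stretches (y axis, percent) that match no other gene, for 50-base (blue) and 100-base (red) stretches, by copy (x axis). At 50 bases Xlr3a has the highest bar at 55.2% and Xlr5b the lowest at 9.27%.

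The copies moved together, so the 250 bases before their RefSeq start sites (build GRCm38.p6) were read as well. The count of CG pairs, the bases that carry methylation, was 3 for Xlr3a, 6 for Xlr3b and Xlr3c, 8 for Xlr4a and Xlr4b, 5 for Xlr4c, 12 for Xlr5a, 14 for Xlr5b and 1 for Xlr5c, against a median of 6 over 32851 promoters of the same length. The Xlr3 and Xlr4 promoters other than that of Xlr3a are thus near the middle of all promoters in CG pairs. For Xlr3a, 71% of all promoters had as many CG pairs or more. The promoters of the Xlr3 copies, of Xlr4a and of Xlr5a are shown to let their differences be read, with every CG pair in capitals.

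Xlr3a, chrX:73097096-73097345, minus strand: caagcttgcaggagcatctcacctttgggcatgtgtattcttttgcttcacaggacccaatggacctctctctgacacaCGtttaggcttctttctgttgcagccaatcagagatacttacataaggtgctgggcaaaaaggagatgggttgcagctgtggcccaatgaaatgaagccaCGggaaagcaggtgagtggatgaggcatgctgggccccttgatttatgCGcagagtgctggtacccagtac
Xlr3b, chrX:73191929-73192178, plus strand: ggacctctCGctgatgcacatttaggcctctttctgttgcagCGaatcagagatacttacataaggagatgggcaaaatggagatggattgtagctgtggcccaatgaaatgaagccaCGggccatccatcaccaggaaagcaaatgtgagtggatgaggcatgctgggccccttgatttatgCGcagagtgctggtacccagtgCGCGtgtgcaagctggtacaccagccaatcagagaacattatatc
Xlr3c, chrX:73265391-73265640, minus strand: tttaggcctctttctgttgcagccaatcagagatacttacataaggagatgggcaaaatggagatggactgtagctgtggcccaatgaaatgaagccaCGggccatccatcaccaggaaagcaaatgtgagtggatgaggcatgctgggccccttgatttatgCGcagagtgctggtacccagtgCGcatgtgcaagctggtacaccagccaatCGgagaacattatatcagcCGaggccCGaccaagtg
Xlr4a, chrX:73082508-73082757, minus strand: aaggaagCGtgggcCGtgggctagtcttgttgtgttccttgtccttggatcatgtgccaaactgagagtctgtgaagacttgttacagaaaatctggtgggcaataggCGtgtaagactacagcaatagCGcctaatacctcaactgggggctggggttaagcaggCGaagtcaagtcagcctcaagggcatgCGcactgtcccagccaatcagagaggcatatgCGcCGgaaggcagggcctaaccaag
Xlr5a, chrX:73117703-73117952, minus strand: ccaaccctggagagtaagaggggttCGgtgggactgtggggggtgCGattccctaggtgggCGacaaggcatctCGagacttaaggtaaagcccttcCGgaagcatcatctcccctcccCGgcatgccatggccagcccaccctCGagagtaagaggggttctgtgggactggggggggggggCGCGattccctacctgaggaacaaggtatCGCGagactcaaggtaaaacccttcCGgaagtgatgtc

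Xlr3b and Xlr3c shared an unbroken run of 119 bases, Xlr4b and Xlr4c one of 139, and Xlr5a and Xlr5b one of 205. Between Xlr3 and Xlr4 promoters the longest shared runs were 14 or 15 bases. The 8 letters CCAATCAG, searched on both strands and chosen after the sequences had been read, were in the promoters of all Xlr3 and Xlr4 copies (6 of 9 members) and in 3.83% of all promoters. The shorter CCAAT, which CCAATCAG contains, was in 7 of 9 and in 33.8% of all. CACGTG, the E-box, was in 0 of 9 (6.02% of all) and TTCCCGC, an E2F-type motif, in 0 of 9 (3.82%). The Xlr5c window shared at most 9 bases in a row with those of Xlr5a and Xlr5b.

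The libraries held 25588815 to 37399837 gene counts in the first experiment and 23354015 to 41844823 in the second, and each pair of replicates differed beyond sampling noise. Levels are given as TMM-scaled CPM, in which each count is set against the size of its library. The summed CPM of 6 stem cell markers was 2391 to 4276 in every library, against 5.32 to 17.2 for 6 fibroblast markers. Under DMSO the stem cell sum was 3037 to 3076 in TKO against 4058 to 4070 in wild type. Pou5f1, Nanog, Sox2, Esrrb and Utf1 were lower in TKO and Zfp42 was higher. Of the targeted genes, Dnmt1 stood at 128 and 128 CPM in the TKO DMSO libraries against 424 and 434 in wild type, Dnmt3a at 41.0 and 41.9 against 103 and 99.1, and Dnmt3b at 41.2 and 43.96 against 179 and 197. All remained counted, and gene counts do not show which exons the remaining reads came from. Trophoblast markers rose in TKO cells (5 of 6), with summed levels of 749 to 780 CPM under DMSO against 71.7 to 80.6 in wild type. Krt8 and Krt18 made up most of this sum in every group, with means of 461 and 253 CPM in TKO under DMSO. Hand1 had a mean of 43.5 CPM there, Cdx2 2.65 and Elf5 0.96, and Eomes was not called. Elf5 had 0 counts in both wild-type DMSO libraries and passed the low-count filter through TKO libraries, so its rise followed from being tested. Of 6 germ cell markers, Dazl, Prdm1 and Dppa3 rose, Ddx4 and Mael fell and Sycp3 was not called, with summed levels of 158.5 to 163 CPM against 64.7 to 65.01. Primitive endoderm markers fell for 5 of 6, with 94.5 to 95.4 CPM against 146 to 168.5. Over all genes tested between TKO and wild type under DMSO, 34.8% rose and 34.2% fell. The part of these marker lists in the results on Xlr genes was not tested. In bulk RNA, more cells that express a gene and more RNA per cell cannot be told apart.

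The first question was what loss of the Dnmt genes did to the family. All 9 copies rose in TKO cells, from a family total of 3.57 and 3.02 CPM in the wild-type DMSO libraries to 139 and 142 CPM in the TKO DMSO libraries. The share of all 16711 tested genes that rose was 34.8%. With library size as the only scaling the median log2 fold change over all genes moved from 0.012 to 0.161 and 63.5% of called genes were higher, against 50.5%, and 9 of 9 copies still rose. Xlr4b, Xlr4c and the Xlr5 copies had fewer than 10 counts in every wild-type library and passed the low-count filter through the TKO libraries. So did Xlr3b, whose wild-type counts (15 and 9 with DMSO, 9 and 8 with inhibitor) would not have passed it alone. For these copies a rise followed from being tested, and the count of 9 is a description. The same 9 copies rose without treatment, where the family total went from 3.04 and 2.56 CPM in wild type to 135 and 125 CPM in TKO, and 25.9% of 16303 genes rose. The same limit held in the untreated libraries. There Xlr3b (11 and 2 wild-type counts) and Xlr3c (6 and 16) also passed the filter only through libraries of TKO genotype. The 9 copies also rose between TKO and wild-type cells that both had the inhibitor. In that comparison the total went from 4.11 and 3.63 to 127.5 and 119.2 CPM and 36.2% of genes rose (63.8% of called genes with library size alone, against 51.5%).

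Xlr3a had the highest level per length in wild-type DMSO libraries, at 1.18 ± 0.18 CPM per kilobase of transcript (SD, n = 2). Per 1000 stretches of 50 bases found in no other gene it came behind Xlr4a, at 0.80 against 1.32 CPM. It had 58 and 54 counts (2.07 and 1.68 CPM) in the wild-type DMSO libraries and 885 and 881 counts (29.8 and 29.5 CPM) in the TKO DMSO libraries. Its log2 fold change of 3.99 (SE 0.11, edgeR quasi-likelihood test, adjusted p = 1.23e-19) was the smallest of the family. Without treatment it went from 1.55 and 1.06 to 32.3 and 30.1 CPM, a log2 fold change of 4.55 (SE 0.21).

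Xlr3b, the copy imprinted in brain, went from 15 and 9 counts under DMSO in wild type to 632 and 688 in TKO, which is 0.54 and 0.28 against 21.3 and 23.03 CPM. The log2 fold change was 5.78 (SE 0.18). Without treatment it went from 11 and 2 counts to 738 and 651. Xlr3c differs from Xlr3b at only 4 coding bases, and reached the highest TKO level per kilobase of transcript of the 9 copies under DMSO. It had 11 and 9 counts in wild type and 1301 and 1310 in TKO, or 0.39 and 0.28 against 43.8 and 43.9 CPM. Its ratio of summed counts, scaled for library size, was 132, with a 95% counting interval of 85.2 to 216, and its log2 fold change was 7.02 (SE 0.14, edgeR adjusted p = 1.55e-22). Such intervals cover counting error only, and no molecular identifiers are mentioned in the labels.

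Per kilobase of transcript the Xlr4 copies were lower than the Xlr3 copies in TKO cells. Xlr4a had 12 and 16 counts in wild-type DMSO libraries and 289 and 298 in TKO, a log2 fold change of 4.39 (SE 0.20). Xlr4b, also imprinted in brain, had 1 and 5 counts against 170 and 150, a log2 fold change of 5.70 (SE 0.34). For Xlr4c, the third of these brain-imprinted copies, 1 and 3 counts stood against 165 and 166, a log2 fold change of 6.30 (SE 0.33). TKO and wild-type levels did not overlap for any Xlr4 copy, nor for 42.5% of all genes, which were likewise higher in both TKO libraries. The same held without treatment (38.5% of all genes), where TKO levels were 13.5 and 11.6 CPM for Xlr4a, 7.05 and 6.20 for Xlr4b and 5.51 and 5.49 for Xlr4c.

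The Xlr5 copies were at or near 0 in wild-type cells. Over the 6 wild-type libraries of both experiments no Xlr5 copy had more than 1 count in a library. Under DMSO, Xlr5a went from 0 and 1 counts to 299 and 311, a ratio of 616 with a counting interval of 110 to 24370. Xlr5b went from 1 and 0 to 107 and 103, a ratio of 212 with an interval of 37.6 to 8414, and Xlr5c from 1 and 0 to 284 and 339, a ratio of 629 with an interval of 112.5 to 24880. These wide intervals come from a wild-type count of 1, so the order of the Xlr5 ratios is not resolved. Without treatment Xlr5c had 0 counts in both wild-type libraries and 293 and 230 in TKO, at least 134-fold higher against a floor of 3 counts over the group.

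**Figure D2:**
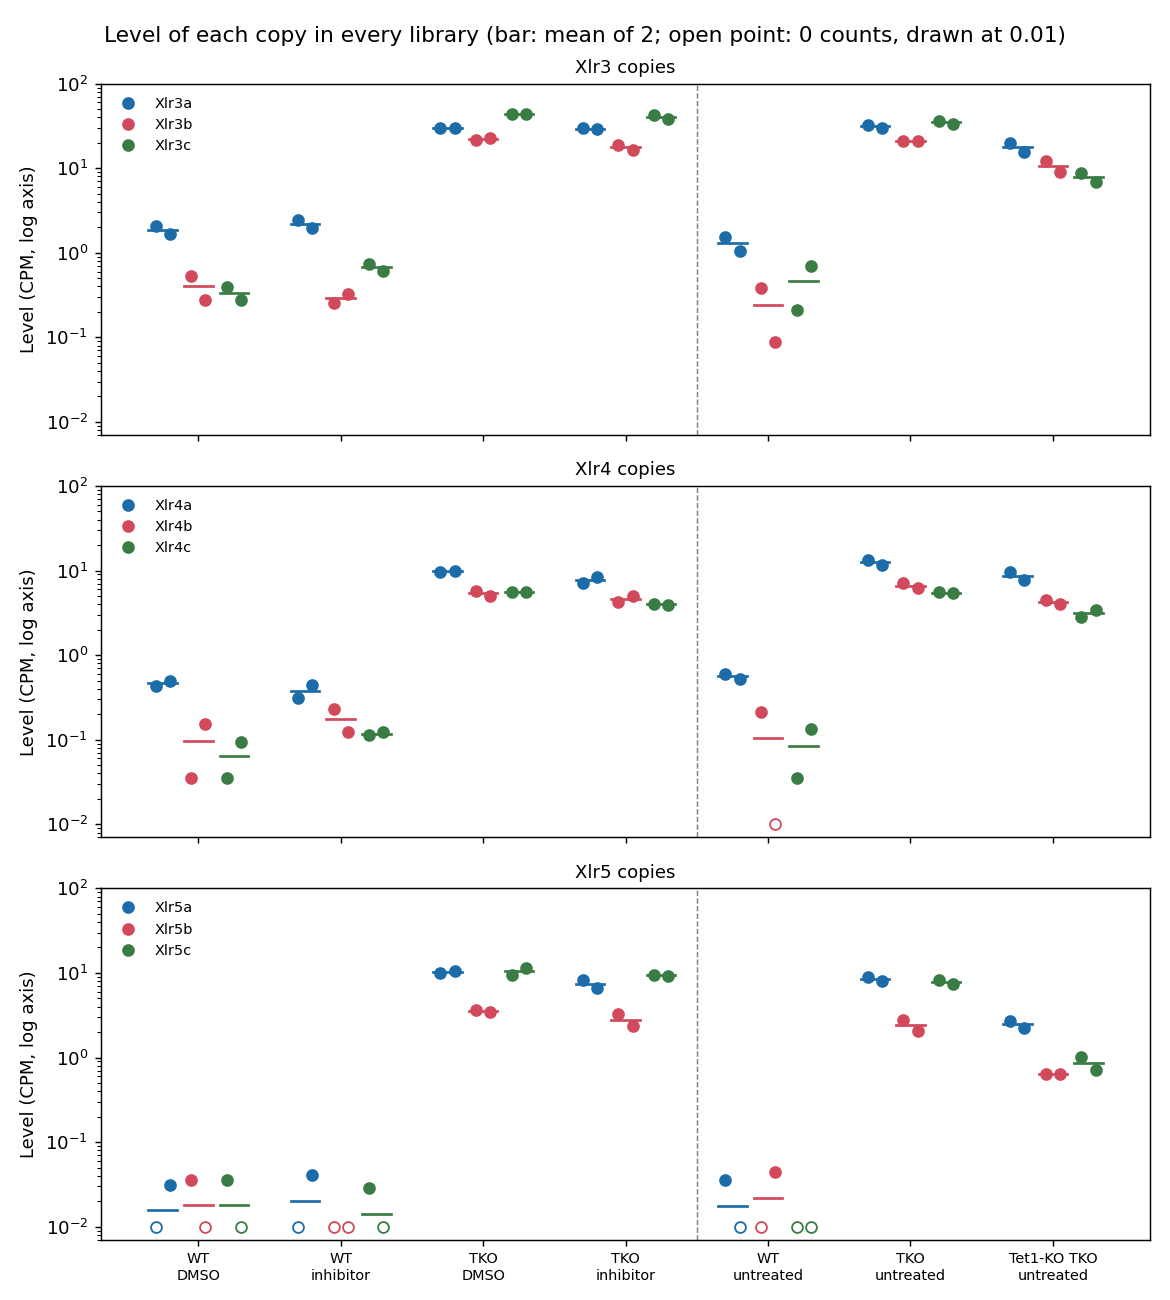
Level of each copy in every library (points, TMM-scaled CPM on a log axis) by group, with a bar at the mean of 2 libraries and open points at 0.01 for 0 counts; the dashed line parts the 2 experiments. Every TKO library lies above every wild-type library for each copy, and the Tet1-KO TKO points lie below those of untreated TKO.

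Ordered along the X chromosome in the GRCm38 annotation, the copies run Xlr4a, Xlr3a, Xlr5a, Xlr5b, Xlr3b, Xlr4b, Xlr4c, Xlr3c and Xlr5c, so members of a subfamily are interspersed. The ratios of TKO to wild-type counts were lowest for the first 2 in this order, Xlr4a (21.2, interval 14.5 to 32.1) and Xlr3a (15.9, interval 13.2 to 19.4). These were also the copies with the highest level per kilobase in wild-type DMSO libraries. The wild-type level is the denominator of the ratio, so this is not a separate trait. Their intervals lie below those of Xlr3b and Xlr3c, but that of Xlr4a overlaps that of Xlr4b (24.5 to 147.8). Differences between copies in fold change were not tested.

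**Figure D3:**
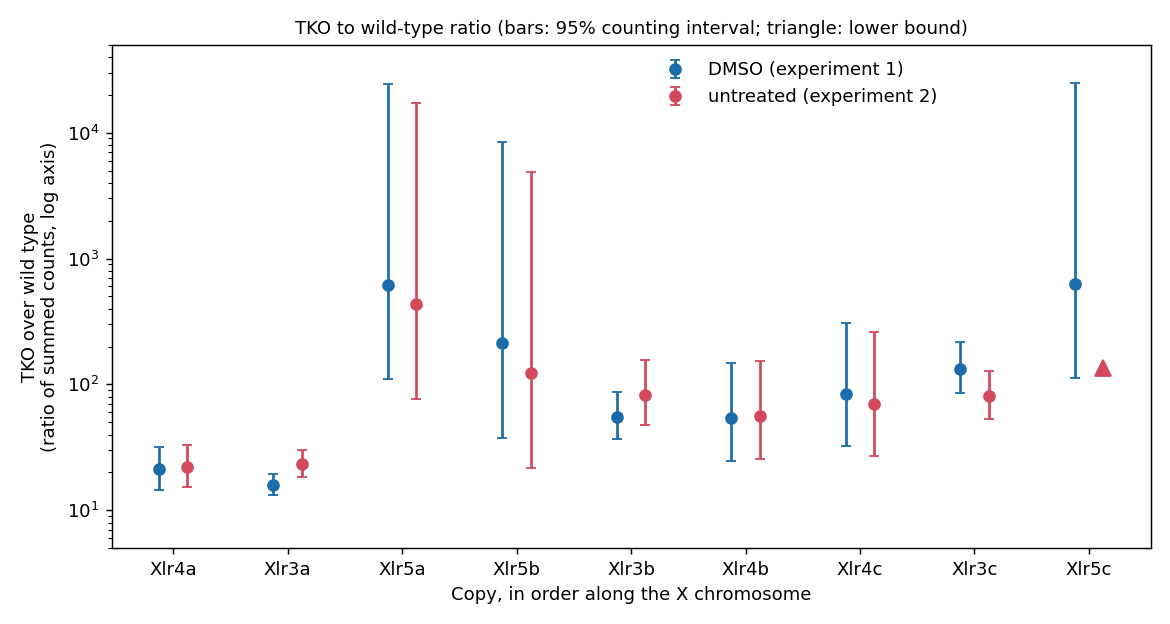
Ratio of summed counts, scaled for library size, in TKO to wild-type cells (y axis, log scale) for each copy in chromosome order (x axis), under DMSO (blue) and without treatment (red), with 95% counting intervals and a triangle for the lower bound of Xlr5c. Xlr3a (15.9 under DMSO) and Xlr4a (21.2) have the lowest ratios.

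Levels of different copies can be compared only per length. Divided by the length of the coding transcript in kilobases, the mean TKO DMSO level was 27.7 ± 0.03 CPM per kb for Xlr3c, 18.7 ± 0.13 for Xlr3a, 14.2 ± 0.80 for Xlr3b and 8.48 ± 0.15 for Xlr4a (SD, n = 2). It was 6.31 ± 0.76 for Xlr5c and 6.21 ± 0.15 for Xlr5a, which did not differ beyond their spread. Xlr4b followed at 4.12 ± 0.38, Xlr4c at 3.70 ± 0.0018 and Xlr5b at 2.13 ± 0.066, and the gap between Xlr4b and Xlr4c was little larger than the SD of Xlr4b. The order depends on the length used: per 1000 stretches of 50 bases found in no other gene, Xlr3c stayed first at 102, but Xlr3a fell to 12.6, behind Xlr4a at 28.1 and each Xlr5 copy (22.4 to 41.5).

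Summed over copies, the Xlr3 subfamily went from 2.62 ± 0.54 CPM in wild type to 95.6 ± 1.09 in TKO under DMSO, Xlr4 from 0.62 ± 0.17 to 20.8 ± 0.32 and Xlr5 from 0.051 ± 0.029 to 24.2 ± 1.40 (SD, n = 2). These sums do not depend on how reads were divided among copies of one subfamily. They can still hold reads of other genes, since 358 of 1762 stretches of 50 bases in Xlr5a, 339 of 1694 in Xlr5b and 364 of 1616 in Xlr5c were shared with a gene outside the family, and reads dropped for matching several copies would lower all of these levels.

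The second question was the effect of the PRC1 inhibitor. In wild-type cells it left the family low: the total was 4.11 and 3.63 CPM with inhibitor and 3.57 and 3.02 CPM with DMSO. Xlr3c was the 1 of 9 copies that rose, from 11 and 9 counts (0.39 and 0.28 CPM) to 26 and 15 (0.74 and 0.61 CPM), while 19% of all genes rose. Its log2 fold change was 1.04 (SE 0.35, edgeR adjusted p = 0.0214). The call was lost without wild-type DMSO replicate 2 (0.81, adjusted p = 0.175) and without wild-type inhibitor replicate 1 (0.88, adjusted p = 0.181). Xlr3a gave a log2 fold change of 0.26 (SE 0.18) and Xlr3b one of -0.48 (SE 0.45), and neither passed the test. For the Xlr5 copies 0 or 1 count per library leaves a change undetectable at this depth.

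In TKO cells the inhibitor was set against DMSO on the same high level of expression. The DMSO libraries are shared with the genotype comparison above. The family total was 127.5 and 119.2 CPM with inhibitor and 139 and 142 CPM with DMSO, and 4 of 9 copies fell, against 19.6% of all genes. Xlr4c fell by 0.48 on the log2 scale (SE 0.15, edgeR adjusted p = 0.0138), from 5.55 and 5.56 to 3.999 and 3.95 CPM. Xlr5a fell by 0.46 (SE 0.13), from 10.1 and 10.4 to 8.16 and 6.65 CPM. Xlr4a fell by 0.35 (SE 0.12) and Xlr3b by 0.32 (SE 0.094). The other 5 copies had log2 fold changes of -0.32 to -0.02 and did not pass the test. The median was -0.32 over the members and -0.003 over all genes. These 4 calls were small: DESeq2 made 0 of them (adjusted p = 0.101 to 0.236), and leaving out a TKO library left 1 or 2. The trophoblast markers stood at 1050 to 1056 CPM in these TKO inhibitor libraries and the stem cell markers at 2391 to 2485 CPM, against 3037 to 3076 with DMSO. Their part in the lower Xlr levels was not tested.

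Whether the inhibitor acted differently in the 2 genotypes was tested as an interaction. It was called for 0 of 9 copies and for 3.89% of all genes. DESeq2 also called 0, and 1 copy, Xlr3c, had an unadjusted p under 0.05 in edgeR. Its interaction was -1.16 on the log2 scale (SE 0.36, edgeR adjusted p = 0.0659). TKO cells with inhibitor against wild-type cells with DMSO, a contrast that shares libraries with those above, gave 9 of 9 higher (39.6% of all genes), with log2 fold changes from 3.97 for Xlr3a to 8.82 for Xlr5c.

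The third question was what loss of Tet1 did in cells that already lacked the Dnmt genes. The TKO libraries are those set against untreated wild type above. The family total was 135 and 125 CPM in TKO libraries and 62.6 and 49.9 CPM in Tet1-KO TKO libraries. Of the 9 copies, 8 fell, against 10.4% of 16303 genes, and the median log2 fold change was -0.99 over the members and 0.004 over all genes. With library size as the only scaling 40.6% of called genes were higher, against 52.9%, and 8 copies still fell. All 9 copies had lower CPM in both Tet1-KO TKO libraries than in either TKO library, as had 32.4% of all genes, and an exact permutation test of 2 against 2 libraries cannot go below p = 0.333. Tet1 itself had 27829 and 22975 counts in TKO libraries and 5008 and 8185 in Tet1-KO TKO libraries, a log2 fold change of -2.19 (SE 0.16).

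Xlr5c fell most. It had 293 and 230 counts (8.33 and 7.42 CPM) in TKO libraries and 38 and 29 (1.02 and 0.71 CPM) in Tet1-KO TKO libraries. It fell by 3.19 on the log2 scale (SE 0.26, edgeR adjusted p = 2.93e-05). Xlr3c came next, with 36.2 and 33.3 CPM in TKO and 8.83 and 6.87 CPM in Tet1-KO TKO libraries, and fell by 2.15 (SE 0.20, adjusted p = 3.47e-05). These copies are the last 2 of the 9 along the chromosome, in the order given above. A link with position was not tested.

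The other Xlr5 copies also fell by more than 1 on the log2 scale. Xlr5a went from 8.87 and 8.04 to 2.74 and 2.23 CPM and fell by 1.77 (SE 0.22). Xlr5b went from 2.76 and 2.03 to 0.64 and 0.64 CPM and fell by 1.90 (SE 0.34). As the sum of its copies, Xlr5 stood at 18.7 ± 1.74 CPM in TKO and 3.99 ± 0.58 in Tet1-KO TKO libraries (SD, n = 2).

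Xlr3a and Xlr3b fell less. Xlr3a went from 32.3 and 30.1 to 20.1 and 15.3 CPM and fell by 0.82 (SE 0.16, edgeR adjusted p = 0.00357), and Xlr3b went from 20.98 and 21.01 to 12.2 and 8.96 CPM and fell by 0.99 (SE 0.20, adjusted p = 0.0044). Among the Xlr4 copies, Xlr4c fell by 0.82 (SE 0.23, adjusted p = 0.0255) and Xlr4a by 0.53 (SE 0.17, adjusted p = 0.0416), whereas Xlr4b, at 7.05 and 6.20 against 4.46 and 4.03 CPM, had a log2 fold change of -0.64 (SE 0.27, adjusted p = 0.107). With the replicate number as a block Xlr4b passed the test (-0.64, edgeR adjusted p = 0.039). That makes 9 of 9 copies lower in the blocked fit, where 2132 of 16303 genes were lower. The Xlr4 calls were the unsteady ones: DESeq2 did not call Xlr4a (adjusted p = 0.0864) or Xlr4c (0.0574), and both calls were lost when either TKO library was left out, Xlr4a at adjusted p = 0.305 and 0.0935 and Xlr4c at 0.132 and 0.115. Xlr4a was also lost without Tet1-KO TKO replicate 2 (0.23) and Xlr4c without Tet1-KO TKO replicate 1 (0.109). The 6 calls in Xlr3 and Xlr5 held under every alternative run.

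**Figure D4:**
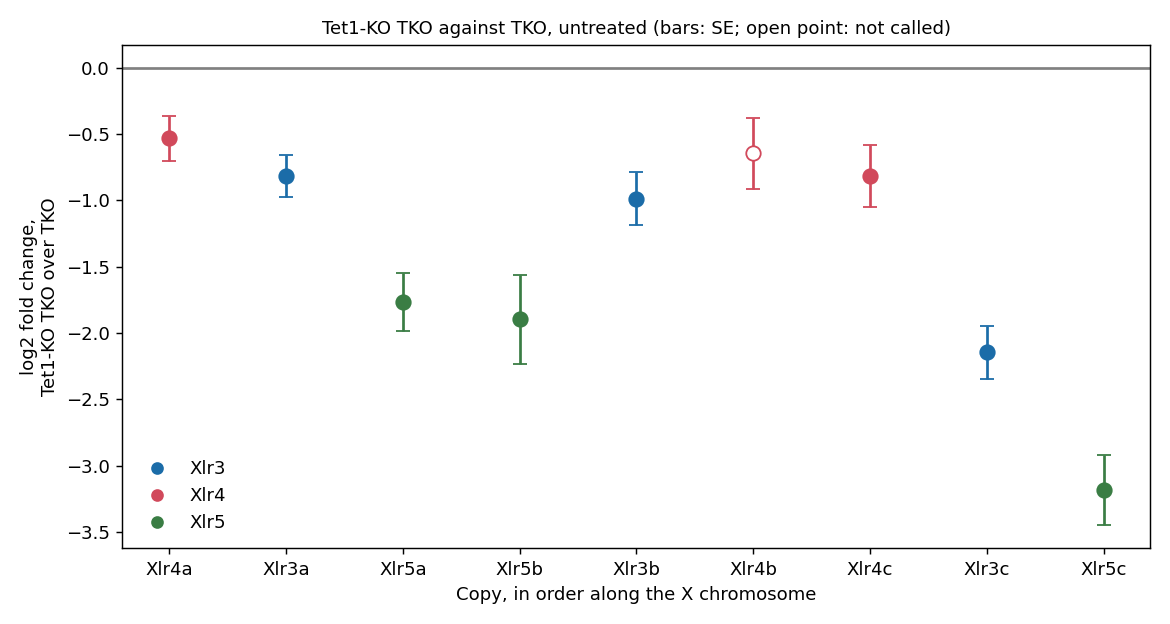
Log2 fold change of each copy in Tet1-KO TKO against TKO cells (y axis) in chromosome order (x axis), with bars of 1 SE and colours for the subfamilies. The open point is Xlr4b, which was not called in this fit but was called with the replicate number as a block. Xlr5c at -3.19 and Xlr3c at -2.15 lie lowest, and Xlr4a at -0.53 lies highest.

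Since the Tet1-KO libraries also carry the Dnmt-TKO genotype, they were set against wild type, a contrast that shares libraries with both others. All 9 copies were higher (26.3% of all genes rose). Levels in Tet1-KO TKO cells thus lay between those of wild-type and TKO cells for each copy, for Xlr3c with 0.21 and 0.71 CPM in wild type, 8.83 and 6.87 in Tet1-KO TKO and 36.2 and 33.3 in TKO libraries. Xlr5c, at 0 counts in wild type and 38 and 29 in Tet1-KO TKO, was at least 14.6-fold higher.

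The Tet1-KO TKO libraries also differed from TKO in other ways. Primitive endoderm markers rose for 6 of 6 genes and trophoblast markers for 5 of 6, against 11.6% of all genes. Summed primitive endoderm levels were 85.9 to 184 CPM against 43.0 to 72.2 in TKO, and trophoblast levels 464.5 to 631 against 131 to 141.5 CPM. In untreated wild type these sums were 107.8 to 187.5 and 50.9 to 57.4 CPM. The calls of Gata6 and Gata4 lay near the threshold (edgeR adjusted p = 0.0499 and 0.0451), and Gata4 stood at 14.4 and 34.5 CPM in the Tet1-KO TKO libraries. Stem cell markers overlapped, at 3406 to 3778 against 3576 to 3752 CPM. Dnmt3a transcripts were lower by 1.04 on the log2 scale (SE 0.15). The part of these differences in the lower Xlr levels was not tested.

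Within Xlr3 and within Xlr5 the copies did not keep their proportions when Tet1 was lost. Xlr3c made up 40.4 and 39.4% of the Xlr3 counts in the TKO libraries and 21.4 and 22.1% in the Tet1-KO TKO libraries, where the 95% Wilson intervals were 38.7 to 42.2% in the first TKO library and 19.4 to 23.6% in the first Tet1-KO TKO library. Xlr3a went from 36.1 and 35.7% to 48.9 and 49.2%. Within Xlr5, Xlr5c went from 41.7 and 42.4% to 23.2 and 19.9% and Xlr5a from 44.4 and 45.9% to 62.2 and 62.3%. Within Xlr4 the shares of all 3 copies overlapped between groups, at 27.1 and 26.6% against 26.3 and 26.7% for Xlr4b. The inhibitor, by contrast, went with Xlr3c shares of 46.4 and 45.9% against 46.2 and 45.5% with DMSO in TKO cells. In wild-type cells Xlr3a made up most Xlr3 counts, at 69.0 and 75% with DMSO and 72.1 and 57.1% without treatment. Shares rest on how reads were divided among copies, and 2 libraries a group do not allow a permutation p under 0.333.

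**Figure D5:**
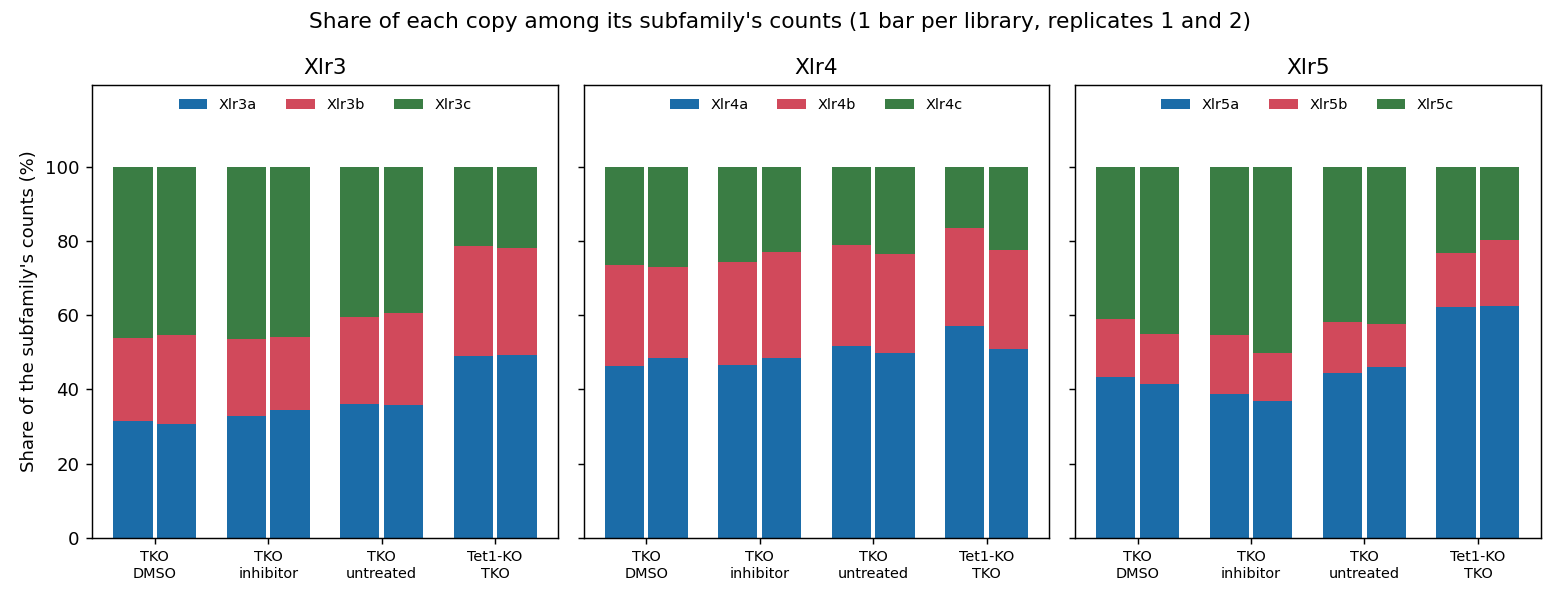
Share of each copy (colours) in the counts of its subfamily (y axis, percent), as 1 bar for each TKO library by group (x axis), for Xlr3, Xlr4 and Xlr5. The green segment of Xlr3c falls from about 40.4 and 39.4% to 21.4 and 22.1% in the Tet1-KO TKO bars, and that of Xlr5c from 41.7 and 42.4% to 23.2 and 19.9%.

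Relatives of the family gave a mixed picture. Of 11 listed relatives 9 were in the tables and 2, Xlr and Sycp3, had enough counts to test. Xlr, the founding member, rose from 0.27 ± 0.073 to 1.59 ± 0.11 CPM in TKO cells under DMSO (SD, n = 2), a log2 fold change of 2.56 (SE 0.36), and by 1.67 (SE 0.38) without treatment. With loss of Tet1 its log2 fold change was 0.75 (SE 0.30, adjusted p = 0.093), which did not pass the test. The inhibitor raised Xlr in TKO cells by 0.81 (SE 0.22, edgeR adjusted p = 0.00541). Sycp3 rose with inhibitor in both genotypes, by 1.58 (SE 0.16) in wild type and 1.88 (SE 0.16) in TKO. With DMSO it had a TKO log2 fold change of -0.35 (adjusted p = 0.122), and without treatment it was lower in TKO, at -0.99 (SE 0.26). The 6 annotated pseudogene copies had 0 to 14 counts a group, the most for Xlr4e-ps, which had 0 counts in every wild-type library and 12 in the TKO DMSO group. Slxl1 had 0 or 1 count a group. Slx and Sly were not analysed here.

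Genes around the cluster moved in both directions. Of 48 protein-coding genes within 1 Mb of the outermost copies, 39 were tested in the first experiment: 17 rose and 17 fell in TKO cells under DMSO, with a median log2 fold change of 0.064, while 34.8% of all genes rose and 34.2% fell. Without treatment 12 of 35 rose and 12 fell, against 25.9 and 24.3% of all genes. Pnma5, a gene of the paraneoplastic antigen family, had the smallest p in both, and went from 0.82 and 1.18 to 35.8 and 33.8 CPM under DMSO, a log2 fold change of 5.10 (SE 0.13). Magea4, a melanoma antigen gene of the cancer-testis class, had 0 counts in both wild-type and 167 and 144 counts in both TKO DMSO libraries. Magea4 and several other neighbours that rose had fewer than 10 counts in every wild-type library. They passed the low-count filter only through libraries of TKO genotype. For these a rise followed from being tested, so the counts of neighbours that rose and the median are a description. Pdzd4 rose by 0.80 (SE 0.060) and Tktl1 by 4.204 (SE 0.40). With loss of Tet1, 6 of 35 neighbours rose and 3 fell, against 11.6 and 10.4% of all genes. Pnma5 fell by 0.72 (SE 0.11), Magea4 by 1.85 (SE 0.31) and Pdzd4 by 0.42 (SE 0.11), while Dusp9, a phosphatase of MAP kinases, rose by 0.94 (SE 0.093).

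Of 22 genes of the silencing machinery, 22 were tested. In TKO cells under DMSO 10 rose and 9 fell, against 34.8 and 34.2% of all genes. Those that fell include Dnmt1, Dnmt3a and Dnmt3b, the targets of the knockout. The smallest p was that of Dnmt3l, which assists Dnmt3a and Dnmt3b and rose by 2.44 (SE 0.049). Rnf2, a catalytic subunit of PRC1, fell by 1.32 (SE 0.044). With loss of Tet1, 1 rose and 4 fell, against 11.6 and 10.4% of all genes. With the replicate number as a block these were 2 and 5, where 2366 and 2132 of 16303 genes rose and fell. Without the block Rnf2 rose by 0.35 (SE 0.10), and Tet1 (the knockout target), Dnmt3a, Tet2 (by 0.36, SE 0.11) and L3mbtl2 (by 0.33, SE 0.10) fell. Under the inhibitor 2 rose and 9 fell in wild type, against 19 and 18.7% of all genes, and 3 rose and 5 fell in TKO cells, against 19.9 and 19.6%.

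The pattern of the family over the 7 group means was shared with many genes. Among 14582 genes outside the family that were tested in both experiments and reached 1 CPM in a group, 1247 had a Pearson r above 0.95 with the family's summed log2 level, centred within each experiment. The closest were Gm11223 (a processed pseudogene, r = 0.9995), Aass (r = 0.9994), Stmn1 and Cdh2 (both r = 0.9991) and Magea8 (r = 0.999), over 7 groups. Each of these was lower in every wild-type group than in any TKO group, and between in Tet1-KO TKO within its experiment: the lysine-degrading enzyme Aass, for example, stood at 0.58 CPM in wild type and 50.1 in TKO under DMSO, and at 82.5 in TKO and 24.4 in Tet1-KO TKO cells without treatment. The members themselves had r of 0.9875 (Xlr5c) to 0.9988 (Xlr5a) with their own sum. These values describe 7 means that fall into a wild-type and a TKO cluster and share libraries, and carry no test.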

How the data were processed

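Polyadenylated RNA was sequenced from 14 samples (7 groups of 2). The authors deposited raw counts of reads per gene, made with Bowtie 0.12.8, TopHat2 2.0.2, HTSeq 0.5.3p9 and build mm9, per the submitters' processing notes. For the strand setting, the annotation release and the treatment of reads that match several genes, the sources used here give nothing. Samples were grouped by genotype and treatment from their labels. Symbols came from GENCODE M21, which matched 32919 of 37991 identifiers; sequences came from GENCODE M21 and RefSeq (GRCm38), and no mm9 coordinates were used.

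Each experiment was fitted separately in edgeR 4.0.16 (R 4.3.3): filterByExpr with a minimum count of 10 and total of 15, TMM scaling, quasi-likelihood tests of all its groups together (4 and 3 residual degrees of freedom) and Benjamini-Hochberg adjustment over all genes tested (16711 and 16303), with a call at adjusted p under 0.05. The fits were tested on simulated data. SE is the log2 fold change divided by the root of F. Ratios of counts, scaled for TMM library size, carry exact binomial intervals and shares Wilson intervals, both at 95%, and a group at 0 counts was given a floor of 3. Deviations of same-numbered libraries correlated across genes at -0.034 to 0.038 in the first experiment and at 0.111 to 0.236 over the 3 pairs of groups in the second. The replicate number may thus pair libraries in the second, which comes from the data, as the labels name no shared batch. The main fits of both experiments were made without such pairing, and the replicate number entered only as a block in an alternative run. Depth was 23354015 to 41844823 counts. Alternatives were other scalings, no filter, DESeq2 1.42.0, a replicate block and leaving out each library. The named genes were the members, the listed relatives, neighbours and silencing genes (up to 4 of each by smallest p, plus those targeted) and the 5 genes of most alike pattern. A neighbour that this rule names is not reported here. Members and lists were chosen with earlier results of these data known.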

Additional observations from a re-analysis of the deposited data

How the results depend on the processing

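The 9 of 9 copies higher in TKO than in wild-type cells, in each of the 5 comparisons with wild type, were called under every scaling, filter and tool and without any 1 library. Of the 4 copies lower with inhibitor in TKO cells, DESeq2 called 0, and leaving out each library gave 1 to 4; DESeq2 called 4340 genes there against 6596, and 364 against 650 for the interaction. The 1 copy higher with inhibitor in wild type became 0 to 1 and the 8 copies lower with loss of Tet1 became 6 to 9, while the interaction stayed at 0. With the replicate block, Xlr4b was called with loss of Tet1 (-0.64, edgeR adjusted p = 0.039), giving 9 copies, where 2132 of 16303 genes were lower. The block changed no other call of a copy, with counts of 9, 4, 1 and 0 as before. Xlr4b was also called with no filter (adjusted p = 0.0272).

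With library size alone, the log2 ratio of TKO to wild type with inhibitor was 4.94 for the Xlr3 sum and 4.74 for the Xlr4 sum. Leaving out each library, the TKO to wild-type ratio under DMSO was 4.97 to 5.40 for Xlr3, 4.78 to 5.35 for Xlr4 and 8.38 to 9.58 for Xlr5, and that with inhibitor 4.65 to 4.89 for Xlr3. The inhibitor ratio in TKO was -0.21 to -0.080 for Xlr3, -0.43 to -0.29 for Xlr4 and -0.44 to -0.21 for Xlr5, and with loss of Tet1 Xlr3 was -1.48 to -1.07. In wild type, where counts are few, the inhibitor ratio was -0.14 to 0.44 for Xlr4 and -1.04 to 0.17 for Xlr5. Leaving out each library, Xlr3b ran from -0.89 to 0.037 with inhibitor in wild type (0.037 without wild-type DMSO replicate 1), and its interaction from -0.35 to 0.58, with -0.35 without that library and -0.031 without wild-type inhibitor replicate 1. The Xlr4a interaction ran from -0.30 to 0.21, with 0.21 without wild-type inhibitor replicate 2, 0.073 without wild-type DMSO replicate 1 and 0.072 without TKO inhibitor replicate 1. The cause of these shifts was not tested. Depth limits the wild-type values of Xlr4b, Xlr4c and the Xlr5 copies, and a lone library left in a group is assumed to vary like the other groups.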
